A study of Mus musculus with 12 samples.

Results

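Ephrins, semaphorins, netrins, Slits and their receptors were examined in 4 mouse lung adenocarcinoma cell lines. Members were the genes whose single annotated symbol names an Eph receptor, an ephrin, a semaphorin of classes 3 to 7, a plexin, a Slit, a Robo, a netrin or an Unc5 receptor. This gave 66 of 18193 measured genes: 13 Eph receptors, 8 ephrins, 20 semaphorins, 10 plexin symbols, 3 Slits, 4 Robos, 4 netrins and 4 Unc5 receptors. The plexin symbol Plxna4os1 is a transcript from the strand opposite Plxna4 and not a plexin. Of the lines, 3 carry the label highly metastatic (KC1, KC2, KC3) and 1 the label poorly metastatic (KC4). They came from primary lung tumours of K-rasLA1/+; Cdkn1a-/- mice of a background written 127s, so an activated K-ras allele and loss of both copies of Cdkn1a (p21) were shared by all 4 lines. Culture was in RPMI medium with 10% fetal bovine serum, and the labels speak of 6 tumours from 4 mice without assigning lines to mice. Each line had 3 biological replicates, 1 array each. The poorly metastatic class is 1 line, so class and line cannot be told apart. The p-values measure the spread between arrays of a line only, except where a fit takes the line as a random block. That fit also counts the spread between lines.

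These families are contact and short-range signals first studied in growing axons. Eph receptors are tyrosine kinases bound by ephrins on neighbouring cells, the A ephrins being held by a lipid anchor and the B ephrins spanning the membrane. Semaphorins act on plexins, and most secreted class 3 semaphorins need a neuropilin as co-receptor. Slits bind Robo receptors, and netrins bind Dcc, neogenin and Unc5 receptors. In epithelia and their tumours the same molecules act on cell contact, migration and vessel growth.

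Values are log2 signals of the brightest probe set of each gene. Signals under 16 were set to 16, so 4.00 is the lowest value possible. A gene was called different at a Benjamini-Hochberg adjusted p under 0.05 in limma, over all 18193 genes, with a log2 difference of at least 1. Signal levels of different genes are not comparable, since each probe set binds with its own strength. The arrays had median signals of 94.5 to 128, and Spearman correlations across genes were 0.980 to 0.983 within lines and 0.941 to 0.963 between lines. Of 8 epithelial markers, all had line means of 10.31 or above, and 1 was called between the classes: Cldn4, at 11.88, 12.01 and 11.65 in KC1 to KC3 and 10.31 in KC4. Cldn7 was higher in the highly metastatic lines by 0.98, under the minimum. Of 8 alveolar and club cell markers, Napsa was at the floor on all 12 arrays and Nkx2-1 and Scgb1a1 had no line mean of 6, while Abca3 (9.52 to 9.91), Sftpb (7.58 to 8.15), Sftpc (6.63 to 6.86) and Sftpd (6.75 to 10.32) were above that. Sftpd was called between the classes. Of 8 fibroblast, 7 endothelial and 7 leukocyte markers, limma called 0 in any pair of lines, while 1, 2 and 2 had an unadjusted p under 0.05. Of these, 6, 3 and 4 had no line mean of 6, and Pdgfrb and Tie1 were at the floor on all arrays. Among those above were Col1a2 (7.38 to 7.59), Pdgfra (6.03 to 7.15) and Kdr (7.62 to 7.82). The leukocyte markers Cd68 (7.45 to 8.34), Lyz2 (6.62 to 7.23) and Adgre1 (6.6 to 7.0) were above as well. Cd68 was higher in the highly metastatic lines by 0.58 (limma adjusted p = 0.00145), under the minimum. Of 8 neural and glial markers, 1 was called in a pair, Map2 (7.69 in KC1 to 9.01 in KC2). Of that list 2 had no line mean of 6, and Mbp lay at 10.3 to 10.8 without a call. The part of these markers in the results was not tested. The array's control for the 5-prime end of 18S ribosomal RNA was brighter in KC4 (3305) than in KC1, KC2 and KC3 (605, 451 and 414), and its part in the KC4 differences was not tested. In such bulk measurements fewer cells expressing a gene and less RNA per cell cannot be told apart.

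Between the classes, 7 of the 66 guidance genes were called. Higher in the highly metastatic lines were 6: the Eph receptors Ephb6 and Epha1, the ephrin Efna1, the semaphorins Sema3a and Sema3e, and the Slit ligand Slit2. The semaphorin Sema4f was lower. Members were thus called at 10.6%, against 5.45% of all genes, with 9.09% against 2.87% on the higher side and 1.52% against 2.57% on the lower side. The median difference over the 66 members was 0.07 on the log2 scale, beside -0.001 over all genes. The shift was small for most members. A higher mean in the highly metastatic lines was found in 39 of 66 (59.1%), against 46.3% of all genes. Without line KC2 the number called fell to 4, against 4.99% of all genes, since Sema3a, Sema3e and Slit2 were no longer called. With the line as a random block it was 3 (Epha1, Efna1 and Sema3e, all higher), against 1.42% of all genes.

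**Figure D1:**
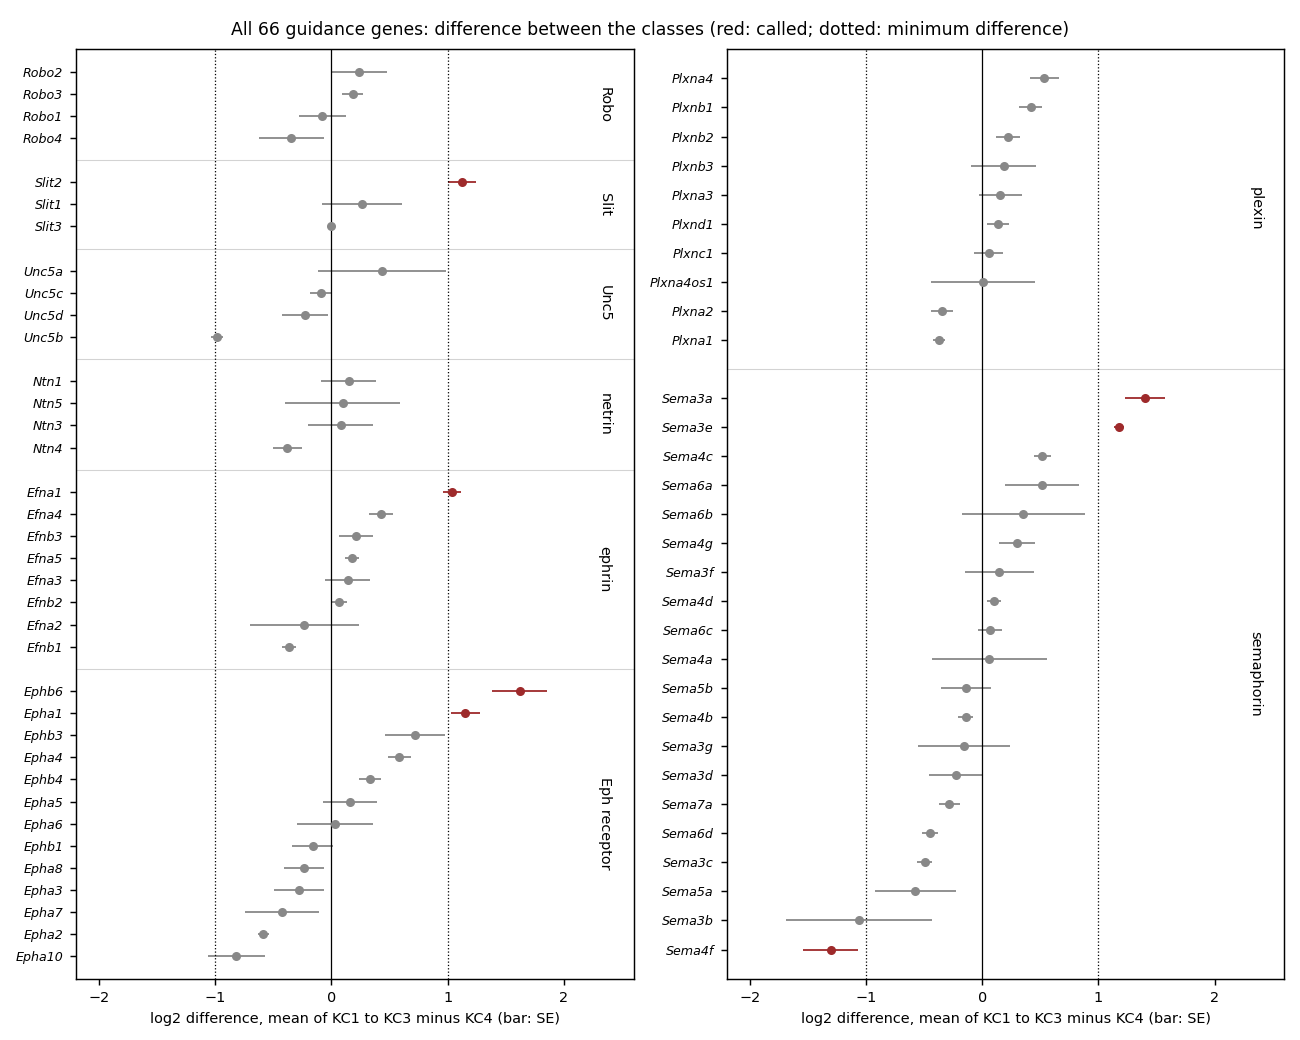
Difference between the classes for all 66 guidance genes, by family. Points give the class difference, highly metastatic minus KC4, on the log2 scale with bars of 1 SE from limma, red points are the 7 called genes and dotted lines mark a difference of 1. The 6 other red points lie right of the upper line, from 1.04 (Efna1) to 1.62 (Ephb6), and Sema4f lies left of the lower one at -1.31.

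Epha1, an Eph receptor of epithelia that binds A ephrins, was the 1 member that set KC4 apart from each other line on the brightest probe set. Its log2 signal was 7.97, 8.17 and 7.97 in KC1, 8.06, 8.32 and 8.04 in KC2, and 8.26, 8.05 and 8.04 in KC3. In KC4 it was 6.79, 7.30 and 6.75. The 9 highly metastatic arrays overlapped and all KC4 arrays lay below them. Between the classes the difference was 1.15 (SE 0.12, limma adjusted p = 8.91e-05), a 2.22-fold higher signal. Against the single lines it was 1.09, 1.20 and 1.17. The call against KC1 is close to the minimum, since without KC4 replicate 3 that difference was 0.996. Over all genes 1.63% set KC4 apart (0.929% as lower), close to the 1.52% of members. Of its other probe sets, 1 had line means of 6.12, 6.10, 5.97 and 5.99 over KC1 to KC4 and 1 lay at the floor on 9 arrays. The Epha1 difference therefore rests on 1 probe set, and it was 0.46 and not called when the probe sets of the gene were averaged. Dimmer probe sets of Sema3e and Sema4f also set KC4 apart, as low and as high.

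Ephb6, a member of the family without kinase activity, was detected in KC1 and KC2 and near the floor elsewhere. It read 6.08, 6.49 and 6.41 in KC1 and 6.55, 6.15 and 5.79 in KC2. In KC3 it read 5.15, 4.00 and 4.20, and in KC4 4.00, 4.00 and 4.08. KC1 and KC2 did not overlap with KC3 or KC4. KC1 exceeded KC4 by 2.30 (SE 0.29, limma adjusted p = 0.000412) and KC3 by 1.88, and KC2 exceeded them by 2.14 and 1.72. With 2 KC4 arrays and 1 KC3 array at the floor these differences are lower bounds in size. KC3 minus KC4 was 0.42 (adjusted p = 0.336), so the class difference of 1.62 (adjusted p = 0.000699) comes from KC1 and KC2. The gene is dim, and with a floor of 64 the class difference was 0.19.

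Epha4, a receptor that binds ephrins of both classes, read 10.45, 10.73 and 10.62 in KC1 and 10.37, 9.92 and 10.24 in KC2. It read 8.74, 8.70 and 8.71 in KC3 and 9.16, 9.41 and 9.17 in KC4. The 6 arrays of KC1 and KC2 all lay above the 6 others. KC1 minus KC3 was 1.88 (SE 0.12, adjusted p = 3.93e-06), KC2 minus KC3 1.46 and KC1 minus KC4 1.35, all called. KC2 minus KC4 was 0.93, under the minimum difference. Of its 4 other probe sets, 2 gave 0.84 and 0.83 for KC1 minus KC3 and were not called, 1 was called in that pair alone (1.09), and 1 was at the floor on all arrays. With averaged probe sets KC1 minus KC3 was 0.93 and not called.

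Epha2, a receptor widely expressed in epithelial tumours, and its ligand Efna1 ran in opposite directions in KC4. Epha2 read 12.49, 12.49 and 12.69 in KC4, 12.18, 12.22 and 12.13 in KC1, and 12.23, 12.19 and 12.28 in KC3. It was lowest in KC2, at 11.45, 11.54 and 11.49. KC2 and KC4 each stood clear of all other arrays. KC2 minus KC4 was -1.06 (SE 0.06, adjusted p = 1.13e-06), the 1 called pair, and -0.99 without KC4 replicate 3. The class difference was -0.59 (adjusted p = 1.67e-05), under the minimum. Efna1 read 8.76, 8.53 and 8.77 in KC4. It read 9.63, 9.37 and 9.42 in KC1, 9.64, 9.84 and 9.69 in KC2, and 10.02, 9.99 and 9.90 in KC3. All KC4 arrays lay below the 9 others, and the class difference was 1.04 (SE 0.08, adjusted p = 8.27e-06), a 2.05-fold higher signal. KC3 minus KC4 was 1.28 and KC2 minus KC4 1.04, while KC1 minus KC4 was 0.79 and not called. The second Efna1 probe set was called as well (1.21). On the brightest one the call was lost without KC4 replicate 2 (0.96) or without line KC3 (0.91).

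In the RefSeq gene table for GRCm38.p6, Efna1, Efna3 and Efna4 are consecutive protein-coding genes. Their levels over the lines were not parallel. Efna4, an A ephrin like Efna1, read 9.33, 9.30 and 9.43 in KC1 and 9.60, 9.44 and 9.39 in KC2, against 8.18, 8.53 and 8.32 in KC3 and 8.41, 8.86 and 8.63 in KC4. It was thus lowest in KC3, where Efna1 was highest. KC2 minus KC3 was 1.13 (SE 0.12, adjusted p = 7.19e-05) and KC1 minus KC3 1.01 for Efna4, with KC2 minus KC3 at 0.89 when each array was centred on its median. Efna3 had line means of 7.59, 7.95, 7.87 and 7.67 and was called in no pair.

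Ephb3, a receptor for B ephrins, was called in 1 pair. It read 9.51, 9.54 and 9.28 in KC2, 8.33, 8.51 and 9.12 in KC1, 8.97, 8.60 and 8.38 in KC3, and 7.48, 8.50 and 8.60 in KC4. KC2 lay above all other arrays, and KC1, KC3 and KC4 overlapped. KC2 minus KC4 was 1.25 (SE 0.32, adjusted p = 0.0124) and 0.90 without KC4 replicate 1. The other 8 Eph receptors were called in no pair. Ephb4, the receptor of Efnb2, came closest by size among the brighter ones, with 8.80, 9.13, 8.27 and 8.40 over KC1 to KC4. Ephb1 varied by 0.21 between line means. Epha3, Epha5, Epha6, Epha7, Epha8 and Epha10 had no line mean of 6 (a signal of 64) or more, and Epha3 was at the floor on 8 of 12 arrays. A second Epha7 probe set was called higher in KC2 (5.29) than in KC1 (4.24) and KC4 (4.25). The B ephrins Efnb1 and Efnb2 were highest in KC3, at 10.02 and 11.98, against 9.17 and 11.14 in KC2, where they were lowest. Both ranges were under 1, as was that of Efna5 (10.25 in KC1 to 11.03 in KC2), and the brightest probe sets of the 3 were not called. A dimmer Efnb2 probe set was called in KC2 minus KC3 (6.59 against 8.24). Efnb3 stayed between 6.87 and 7.16. Efna2 ranged from 5.03 in KC3 to 6.42 in KC2 with no pair called.

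Sema3a, a secreted repellent that acts through Nrp1 and A plexins, had the largest range of line means among the 66 members. Its log2 signal was 8.69, 8.91 and 8.68 in KC1 and 9.74, 9.74 and 9.72 in KC2. It was 6.41, 6.32 and 7.04 in KC3 and 6.85, 7.36 and 6.67 in KC4. KC2 lay above KC1, and both lay above KC3 and KC4, which overlapped. KC2 minus KC3 was 3.15 (SE 0.21, adjusted p = 3.53e-06), an 8.86-fold difference, and KC2 minus KC4 was 2.77. KC1 minus KC3 was 2.17 and KC1 minus KC4 1.80, while KC3 minus KC4 was -0.37 (adjusted p = 0.235). The class difference of 1.40 (adjusted p = 0.00024) therefore joins 2 high lines and 1 line, KC3, that was not called against KC4. It was 0.71 without line KC2. A second probe set had line means of 7.67, 8.72, 5.81 and 5.93 over KC1 to KC4 and was called between the classes (1.47). The remaining one was not called between the classes (0.90). On both of these other probe sets KC2 was called above each other line.

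Slit2, a secreted ligand of Robo1 and Robo2, followed the same order of lines. It read 9.28, 9.40 and 9.82 in KC1 and 9.94, 9.99 and 10.19 in KC2. It read 7.79, 7.64 and 7.97 in KC3 and 7.96, 8.13 and 7.88 in KC4. KC1 and KC2 stood clear of KC3 and KC4. KC2 minus KC3 was 2.24 (SE 0.15, adjusted p = 2.88e-06), a 4.71-fold difference, and KC2 minus KC4 was 2.05. KC1 minus KC3 was 1.70 and KC1 minus KC4 1.51, and KC3 minus KC4 was -0.19 (adjusted p = 0.393). The class difference was 1.12 (adjusted p = 9.34e-05), and it fell to 0.93 without line KC1 and 0.66 without line KC2. A second probe set was called between the classes too (1.02), and another was at the floor on 11 arrays. With averaged probe sets the class difference was 0.75 and not called. Slit1 had line means of 4.89 to 5.61, though its other probe set was called higher in KC2 (5.69) than in KC1 (4.42) and KC3 (4.48). Slit3 was at the floor on all 12 arrays. Robo1, Robo2, Robo3 and Robo4 had ranges of 0.36, 0.32, 0.32 and 0.63 between line means. Limma called 0 of the 4 Robo genes in any pair, against 20.4% of all genes, and 1 had an unadjusted p under 0.05. Robo2 was at the floor on 8 arrays.

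Sema3a, Slit2 and Ephb6 were the members for which KC1 and KC2 were each called above both KC3 and KC4. This is 3 of 66 members (4.55%), against 0.874% of all genes (1.2% in either direction). The division was noticed in these data, and the shares are given as a description. For the other divisions of the lines into pairs, KC1 with KC3 and KC1 with KC4, limma called 0 members against 0.319% and 0.632% of all genes, with 3 and 2 members when an unadjusted p under 0.05 was taken. In 19 of 66 members (28.8%) both KC1 and KC2 had line means above those of KC3 and KC4, against 19.6% of all genes. The alveolar marker Sftpd had the same order of line means as Sema3a and Slit2, though not as Ephb6. It was at 8.86, 10.32, 6.75 and 7.27 in KC1 to KC4, and its relation to these genes was not tested.

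The promoters of the 3 genes that moved together, and that of Epha1, which set KC4 apart, are shown for comparison. Of the 66 members, 56 matched the RefSeq promoter table (GRCm38.p6) by symbol. Each sequence is the 250 bases before the annotated start, 5′ to 3′ on the gene's strand, and capitals mark the motifs found. The arrays do not show which start was used.
Sema3a, chr5:13396534-13396783, plus strand: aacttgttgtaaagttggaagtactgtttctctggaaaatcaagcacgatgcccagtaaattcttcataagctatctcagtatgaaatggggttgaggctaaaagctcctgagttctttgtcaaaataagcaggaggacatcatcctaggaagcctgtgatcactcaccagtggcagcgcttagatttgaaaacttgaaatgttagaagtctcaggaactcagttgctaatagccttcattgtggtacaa
Slit2, chr5:47982905-47983154, plus strand: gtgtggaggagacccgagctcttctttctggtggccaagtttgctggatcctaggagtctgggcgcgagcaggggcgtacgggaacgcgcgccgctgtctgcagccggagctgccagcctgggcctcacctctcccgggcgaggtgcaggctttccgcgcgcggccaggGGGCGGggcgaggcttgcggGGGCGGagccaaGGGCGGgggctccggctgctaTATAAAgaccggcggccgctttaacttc
Ephb6, chr6:41605261-41605510, plus strand: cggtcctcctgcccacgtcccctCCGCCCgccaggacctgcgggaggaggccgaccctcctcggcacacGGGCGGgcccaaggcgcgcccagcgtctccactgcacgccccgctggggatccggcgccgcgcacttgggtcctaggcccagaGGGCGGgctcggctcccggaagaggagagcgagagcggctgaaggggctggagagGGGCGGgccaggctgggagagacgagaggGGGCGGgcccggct
Epha1, chr6:42373269-42373518, minus strand: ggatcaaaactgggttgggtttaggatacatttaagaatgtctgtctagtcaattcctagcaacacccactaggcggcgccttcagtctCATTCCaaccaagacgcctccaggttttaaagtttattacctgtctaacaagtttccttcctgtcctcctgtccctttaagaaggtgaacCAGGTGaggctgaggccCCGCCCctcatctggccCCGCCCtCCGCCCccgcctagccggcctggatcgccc
The motifs searched on both strands were the E-boxes CACCTG and CAGCTG, the AP-1 motif TGANTCA, the GC box GGGCGG, the TATA box TATAAA and the TEAD motif GGAATG. The GC box occurs 3 times in the Slit2 sequence, 5 times in that of Ephb6, 3 times in that of Epha1 and 0 times in that of Sema3a. The Slit2 sequence also holds 1 TATA box, the Epha1 sequence 1 CACCTG and 1 GGAATG, and the Sema3a sequence none of the 6 motifs. The GC content was 40.8% for Sema3a with 2 CG pairs, 69.6% for Slit2 with 25, 76.8% for Ephb6 with 27 and 54.4% for Epha1 with 9. The 3 genes that shared a division of the lines thus did not share a motif of this list or a base composition in this window. Among the 72 promoters listed for members, 70.8% held a GC box, against 48.3% of 18110 promoters of genes named on the array. The member promoters also had a higher median GC content (64.4% against 57.6%) and median number of CG pairs (15 against 12). The part of base composition in the motif shares was not tested. For the other motifs the shares in members and array genes were 12.5% and 17.2% (CACCTG), 16.7% and 12.8% (CAGCTG), 4.17% and 5.62% (TGANTCA), 2.78% and 8.81% (TATAAA), and 11.1% and 11.5% (GGAATG).

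**Figure D2:**
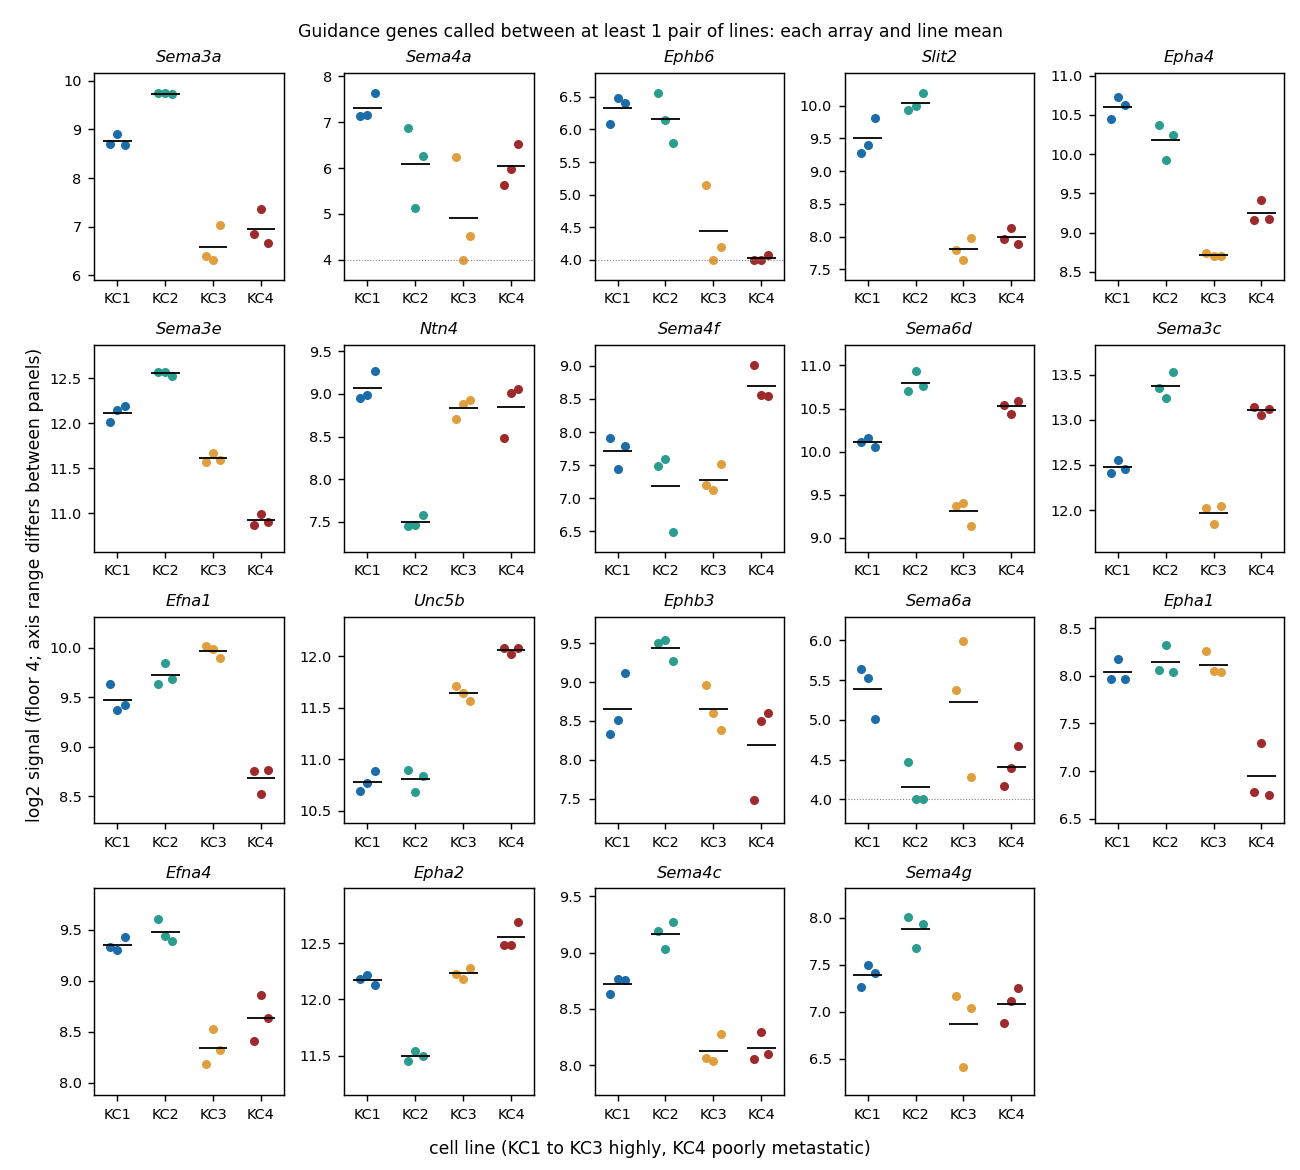
Log2 signal on each of the 12 arrays for the 19 members called between at least 1 pair of lines, ordered by the range of line means. Points are arrays, bars are line means, the dotted line is the floor of 4, and axis ranges differ between panels. KC1 and KC2 lie above KC3 and KC4 in the panels of Sema3a, Ephb6, Slit2, Epha4, Sema3e, Efna4, Sema4c and Sema4g. In the panels of Epha1, Efna1 and Sema3e all KC4 arrays lie below those of the other lines.

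Sema3e, a secreted semaphorin that binds Plxnd1 without a neuropilin, was graded over the lines. It read 12.57, 12.57 and 12.53 in KC2, 12.02, 12.15 and 12.19 in KC1, 11.57, 11.66 and 11.59 in KC3, and 10.87, 10.99 and 10.90 in KC4. The lines did not overlap, and each step between neighbouring lines had an adjusted p under 0.05, with sizes of 0.44, 0.51 and 0.69. Between the classes the difference was 1.18 (SE 0.04, adjusted p = 1.17e-07), a 2.26-fold higher signal. KC2 minus KC4 was 1.64 and KC1 minus KC4 1.20, both called. Without line KC2 the class difference was 0.94, under the minimum. Of the 3 other probe sets, 2 were called between the classes (1.39 and 1.61) and 1 was not (0.97). The probe set at 1.61 also set KC4 apart as low, with KC3 minus KC4 at 1.008, close to the minimum. Plxnd1 had line means of 7.57, 8.01, 7.77 and 7.65 and was called in no pair.

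Sema3e lies close to Sema3a and Sema3d in the RefSeq gene order. Sema3d is next to Sema3a, 3 protein-coding genes lie between Sema3a and Sema3e, and 15 between Sema3e and Sema3c. Sema3d stayed between 4.03 and 4.59. Sema3c, a secreted semaphorin that acts through neuropilins, had another order. It read 13.35, 13.23 and 13.53 in KC2 and 13.14, 13.05 and 13.12 in KC4, against 12.41, 12.56 and 12.46 in KC1 and 12.03, 11.84 and 12.04 in KC3. KC2 and KC4 lay above KC1, and KC3 was lowest. KC2 minus KC3 was 1.40 (SE 0.08, adjusted p = 1.52e-06) and KC3 minus KC4 -1.13. On a second probe set KC2 and KC4 were each called above both KC1 and KC3 (10.09 and 9.87 against 8.64 and 8.62).

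Sema6d, a transmembrane semaphorin that binds Plxna1, had the same order as Sema3c. It read 10.70, 10.94 and 10.77 in KC2, 10.54, 10.44 and 10.59 in KC4, 10.11, 10.16 and 10.05 in KC1, and 9.37, 9.40 and 9.14 in KC3. KC3 lay below all other arrays. KC2 minus KC3 was 1.50 (SE 0.09, adjusted p = 1.16e-06) and KC3 minus KC4 -1.22. Of the 3 other probe sets, 1 was called in the same pairs, and the others gave 0.74 and -0.02 for KC2 minus KC3 and were not called. With averaged probe sets the difference was 0.82 and not called.

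Sema4f, a membrane-bound semaphorin, was the 1 member called lower in the highly metastatic lines. It read 9.01, 8.55 and 8.54 in KC4, 7.90, 7.45 and 7.80 in KC1, 7.48, 7.59 and 6.50 in KC2, and 7.20, 7.13 and 7.52 in KC3. All KC4 arrays lay above the 9 others. The class difference was -1.31 (SE 0.23, adjusted p = 0.00212). KC2 minus KC4 was -1.51 and KC3 minus KC4 -1.42, while KC1 minus KC4 was -0.99 and just missed the minimum. A second probe set had line means of 6.12, 5.36, 6.84 and 8.57 over KC1 to KC4 and was called in KC4 against each line (class difference -2.47). Its name ends in x_at, an ending given to probe sets that can bind related transcripts. With quantile normalization or median centring Sema4f set KC4 apart on the brightest probe set as well.

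Sema4c and Sema4g, membrane-bound semaphorins of class 4, were highest in KC2. Sema4c read 9.20, 9.03 and 9.27 in KC2, 8.63, 8.77 and 8.76 in KC1, 8.07, 8.04 and 8.28 in KC3, and 8.06, 8.30 and 8.10 in KC4. KC3 and KC4 overlapped, and KC2 minus KC3 was 1.04 (SE 0.09, adjusted p = 1.87e-05) and KC2 minus KC4 1.02. Sema4g read 8.01, 7.68 and 7.93 in KC2, 7.27, 7.50 and 7.41 in KC1, 7.17, 6.42 and 7.04 in KC3, and 6.89, 7.11 and 7.25 in KC4. KC2 lay above KC1, and KC1 lay narrowly above KC3 and KC4, which overlapped. KC2 minus KC3 was 1.00 (SE 0.19, adjusted p = 0.00246). Both calls lie at the minimum difference. Under quantile normalization KC2 minus KC3 was 0.97 for Sema4c and 0.80 for Sema4g, and with median centring 0.80 and 0.76. Leaving out KC2 replicate 3 or KC3 replicate 2 took either below 1 (0.99 and 0.99 for Sema4c, 0.97 and 0.77 for Sema4g), as did leaving out KC2 replicate 1 for Sema4g (0.93).

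Sema4a and Sema6a were dim and varied between arrays of a line. Sema4a, a membrane-bound semaphorin studied mostly in immune cells, read 7.13, 7.16 and 7.63 in KC1 and 6.24, 4.00 and 4.52 in KC3. It read 6.88, 5.13 and 6.27 in KC2 and 5.63, 5.98 and 6.53 in KC4. KC1 lay above all other arrays. KC1 minus KC3 was 2.39 (SE 0.61, adjusted p = 0.0139), and 1.93 (adjusted p = 0.0516) without KC3 replicate 2. On the other probe set KC1 (5.92) was called above KC2, KC3 and KC4 (4.08, 4.00 and 4.08). The brightest Sema4a probe set has the ending x_at. Sema6a, a transmembrane semaphorin that binds A plexins, read 5.64, 5.52 and 5.01 in KC1 and 4.47, 4.00 and 4.00 in KC2. It read 5.38, 6.00 and 4.29 in KC3 and 4.17, 4.39 and 4.67 in KC4. KC1 lay above KC2 and KC4, and KC3 overlapped with all 3. KC1 minus KC2 was 1.24 (adjusted p = 0.0448). That call was lost in 10 of the 12 fits without 1 array, with the replicate block (adjusted p = 0.0546) and with a floor of 64, and its 2 other probe sets gave -0.34 and -0.68.

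Of the 20 semaphorins, 9 were called in at least 1 pair, against 20.4% of all genes, and 11 were not. Sema4b was highest in KC1 (10.84) and lowest in KC2 (9.87), a range of 0.97. Sema4d, the ligand of Plxnb1, stayed between 9.79 and 10.23, Sema6c between 9.24 and 9.46, and Sema7a, which has a lipid anchor, between 8.38 and 8.84. Sema3f had means of 10.45 to 11.25 with no call. Sema6b (5.77 to 7.04), Sema3g (4.91 to 6.00) and Sema3b (4.27 to 5.78) had ranges over 1 but also wide spread between arrays, and were not called. A second Sema3b probe set was called in KC2 minus KC3 (5.77 against 4.00). Sema5b stayed between 5.97 and 6.73 and Sema5a between 5.06 and 5.75. A second Sema5a probe set was called lower in KC1 (4.52) than in KC4 (6.10).

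The plexins are the receptors of the semaphorins. Limma called 0 of the 10 plexin symbols in any pair of lines on the brightest probe set, against 20.4% of all genes, and 8 had an unadjusted p under 0.05 in a pair. Their ranges of line means ran from 0.41 (Plxnb3) to 0.88 (Plxna4), with a median of 0.70 beside 0.64 over all genes. Plxna1 was 10.15, 10.66, 10.06 and 10.66 in KC1 to KC4, Plxnb2 11.32, 11.90, 11.48 and 11.34, and Plxnb1 ran from 8.96 in KC4 to 9.66 in KC2. Plxna3 lay between 8.40 and 9.15 and Plxnc1, the receptor of Sema7a, between 5.51 and 6.20. Plxna4 and Plxna4os1 were at 7.40 to 8.28 and 5.07 to 5.88. Plxna2 was lowest in KC3 (7.20, against 7.90 to 8.04). On a second Plxna2 probe set KC3 was called below each other line (5.28 against 6.69 to 7.29), and on another below KC1 alone. A second Plxnb1 probe set was called in KC2 minus KC4 (9.30 against 8.07). The low count for plexins is therefore a count for the brightest probe sets.

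**Figure D3:**
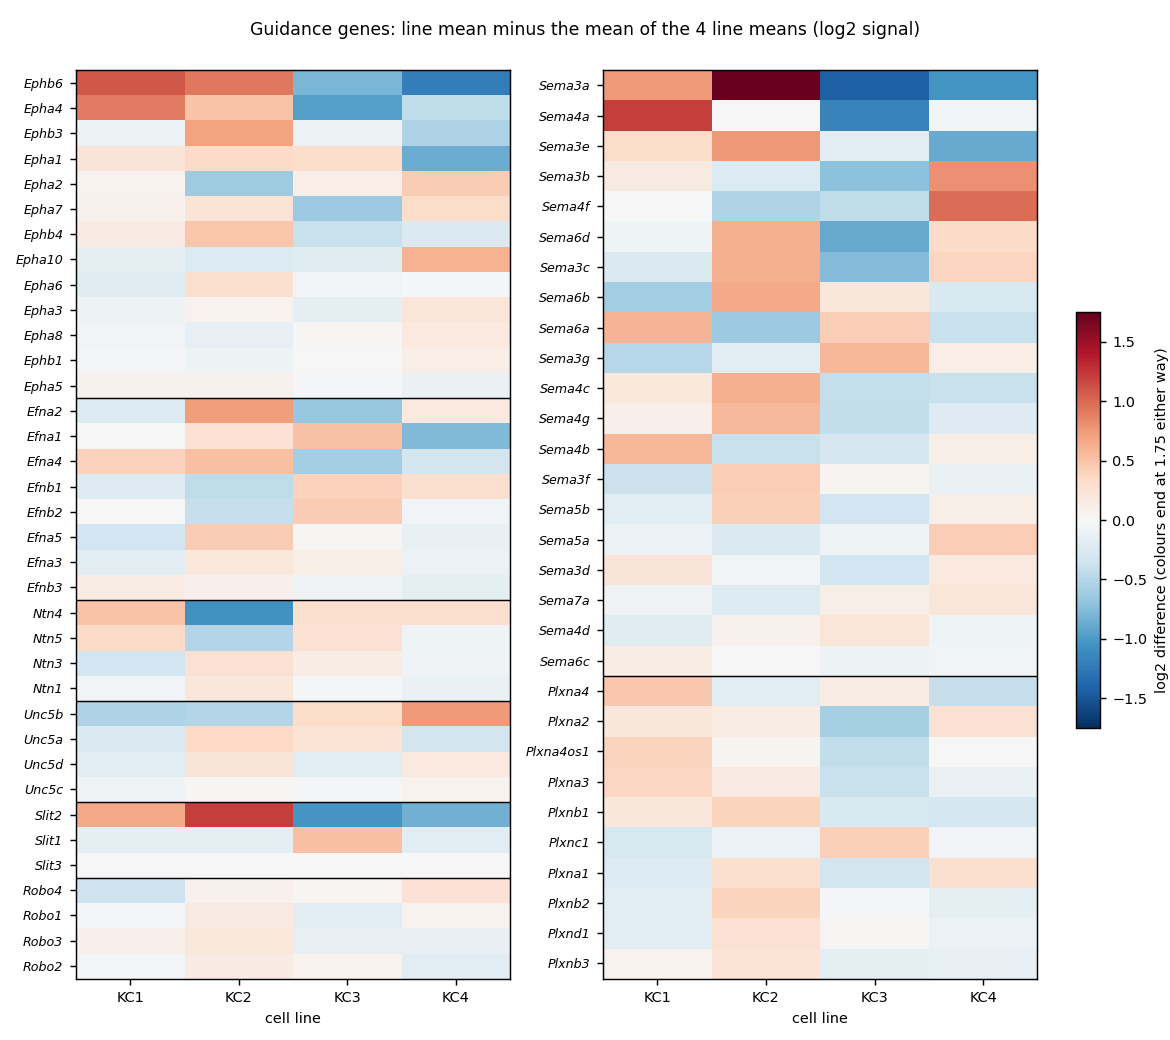
Line means of all 66 guidance genes after subtraction of each gene's mean over the 4 lines, on the log2 scale, ordered by family and by range. Red is above and blue below the gene's own mean, and black lines divide families. The rows of Sema3a (range 3.15), Ephb6 (2.30) and Slit2 (2.24) are red in KC1 and KC2 and blue in KC3 and KC4.

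Ntn4, a secreted netrin that also binds laminin, was the 1 member that set KC2 apart on the brightest probe set. It read 7.45, 7.46 and 7.58 in KC2, 8.95, 8.98 and 9.27 in KC1, 8.71, 8.88 and 8.93 in KC3, and 8.48, 9.01 and 9.05 in KC4. All KC2 arrays lay below the 9 others, which overlapped. KC2 was lower than KC1 by 1.57 (SE 0.15, adjusted p = 8.48e-05), than KC3 by 1.34 and than KC4 by 1.35, differences of 2.97-fold, 2.53-fold and 2.55-fold. Over all genes 1.84% set KC2 apart (1.02% as lower), beside 1.52% of members. The other Ntn4 probe set was at the floor on 8 arrays and not called. With averaged probe sets Ntn4 no longer set KC2 apart, and Sema3a did. Both dimmer probe sets of Sema3a set KC2 apart too. Ntn1 had line means of 6.25 to 6.56, Ntn3 4.73 to 5.33 and Ntn5 4.45 to 5.30, none of them called.

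Unc5b, a netrin receptor, was higher in KC4 and KC3 than in KC1 and KC2. It read 12.08, 12.03 and 12.09 in KC4, 11.71, 11.65 and 11.57 in KC3, 10.69, 10.78 and 10.88 in KC1, and 10.90, 10.68 and 10.84 in KC2. KC4 lay above KC3 and both lay above KC1 and KC2, which overlapped. KC1 minus KC4 was -1.28 (SE 0.07, adjusted p = 1.9e-06) and KC2 minus KC4 -1.26. KC1 minus KC3 and KC2 minus KC3 were -0.86 and -0.83. The class difference was -0.99 (adjusted p = 1.87e-06), just under the minimum, and the second probe set was called at -1.04. Unc5c stayed between 7.40 and 7.52. Unc5a (5.05 to 5.72) and Unc5d (5.01 to 5.44) were dim and not called.

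Over the 6 pairs of lines, 19 of 66 members (28.8%) were called at least once, against 20.4% of all genes. Of the 48 members with a line mean of 6 or more, 18 (37.5%) were called, against 25.1% of 13749 such genes. By pair, the members called were 2 (KC1 and KC2, background 5.01%), 6 (KC1 and KC3, 8.21%), 10 (KC2 and KC3, 10.8%), 7 (KC1 and KC4, 5.54%), 12 (KC2 and KC4, 9.48%) and 5 (KC3 and KC4, 8.22%). KC2 and KC4 was the pair with the most called members, 8 higher and 4 lower in KC2 (backgrounds of 5.02% and 4.46%). KC1 and KC2 differed in the fewest members (3.03%), as they did over all genes (5.01%). Of the other pairs within the highly metastatic class, KC1 and KC3 differed in 6 members and KC2 and KC3 in 10. Pairs that share a line share its arrays.

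The calls were also counted by direction. In KC1 minus KC2 limma called 2 members higher and 0 lower (3.09% and 1.91% of all genes), with 16 lower at an unadjusted p under 0.05. In KC1 minus KC3 it called 6 higher and 0 lower (5.33% and 2.89%), with 7 lower at an unadjusted p under 0.05. In KC2 minus KC3 the split was 9 higher and 1 lower (5.9% and 4.94%), in KC1 minus KC4 6 and 1 (3.49% and 2.05%), and in KC3 minus KC4 2 and 3 (3.52% and 4.7%). Some splits moved with the scaling. Median centring of the arrays gave 6 higher and 5 lower for KC2 minus KC3 (4.06% and 8.14% of all genes), 5 and 1 for KC1 minus KC3 (3.95% and 5.01%), and 6 and 2 for KC1 minus KC4 (3.33% and 2.09%). It moved the median of all genes to -0.096, -0.131 and -0.026 in these pairs. Quantile normalization gave 7 and 2 for KC2 minus KC3 (5.11% and 5.35%), 6 and 2 for KC1 minus KC4 (3.44% and 2.23%), and 1 and 1 for KC1 minus KC2 (3.16% and 1.9%). Limma set 0 members apart in KC1 or KC3, against 0.863% and 2.39% of all genes, and 4 and 8 at an unadjusted p under 0.05 against each line.

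The minimum difference of 1 sets these counts. With no minimum, 24 members were called between the classes, against 32.1% of all genes, and 35 in a pair, against 55.6%. The members that then set KC1, KC2, KC3 and KC4 apart numbered 2, 11, 6 and 6, against 4.13%, 13.2%, 15.4% and 9.93% of all genes. With a minimum of 2, no class difference of a member was large enough (1.37% of all genes were called). In that setting 4 members were called in a pair, Sema3a, Ephb6, Slit2 and Sema4a, against 5.6%. With the same minimum 0.236%, 0.407%, 0.423% and 0.445% of all genes set KC1, KC2, KC3 and KC4 apart, and limma called 0 members for each line.

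**Figure D4:**
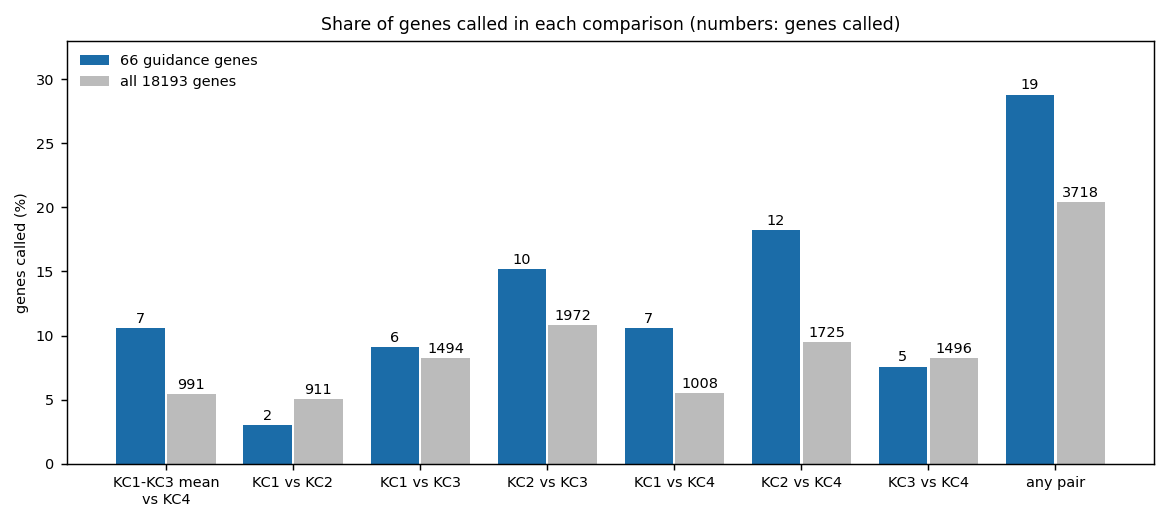
Share of the 66 guidance genes (blue) and of all 18193 genes (grey) called in the class comparison, in each pair of lines and in at least 1 pair. The numbers on the bars are the genes called. Blue bars exceed grey ones by the most for KC2 and KC4 (18.2% against 9.48%) and lie below them for KC1 and KC2 and for KC3 and KC4.

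Co-receptors, shedding enzymes and effectors of these pathways were counted from a list of 76 genes made by role, of which 73 were measured. Between the classes 4 were called higher and 3 lower (9.59%, against 5.45% of all genes), with a median difference of 0.05. Without line KC3 the count was 11 (6.6% of all genes), and with the line as a random block 1 (1.42%). In at least 1 pair 24 were called (32.9%, against 20.4%).

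Nrp1, the co-receptor of Sema3a, set KC2 apart as high and KC3 apart as low. It read 11.72, 10.73 and 11.45 in KC2, 9.83, 10.07 and 9.66 in KC4, 9.04, 9.22 and 9.42 in KC1, and 7.94, 7.76 and 8.26 in KC3. Sema3a was also highest in KC2 and lowest in KC3, but it was higher in KC1 than in KC4, where Nrp1 was not. KC2 minus KC3 was 3.32 for Nrp1 (adjusted p = 6.3e-06), and 3 other probe sets also called KC2 above each other line. Of these, the probe set with line means of 8.12, 10.38, 7.13 and 8.64 over KC1 to KC4 did not set KC3 apart as low. Nrp2, which serves other class 3 semaphorins as well, had the opposite extremes, with 12.02 in KC3 and 10.31 in KC2.

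Vav3, a signalling protein that acts below Eph receptors, was at the floor on all 3 KC4 arrays. It read 6.30, 6.59 and 6.63 in KC1, 7.52, 7.30 and 7.92 in KC2, and 8.35, 7.73 and 8.62 in KC3. The class difference was at least 3.44 on the log2 scale (adjusted p = 1.46e-06), which is a lower bound. Of the other probe sets, 1 set KC4 apart too and 1 did not (class difference 0.65, adjusted p = 0.0548). Dock1 (1.31) and Ablim1 (1.14), which link guidance receptors to Rac and to actin, and Dpysl3 (1.41), a relative of the semaphorin mediator Dpysl2, were also called higher. On the other probe sets, 1 for Dock1 (0.54) and 3 for Ablim1 (0.85, 0.22 and 0.71), the class difference was not called. Dpysl3 was highest in KC1, at 9.28, 9.35 and 9.20, with line means of 7.13, 6.50 and 6.22 in KC2 to KC4, and its class difference was not called on 2 other probe sets.

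The 3 partners called lower were Mical1, Flrt3 and Mical2. Mical1, an actin-oxidising enzyme below plexins, read 7.76, 7.68 and 8.02 in KC4 and 6.71, 6.99 and 7.08 in KC1. It read 4.51, 4.00 and 4.00 in KC2 and was at the floor on all KC3 arrays. Its class difference of -2.79 (adjusted p = 4.99e-07) is a lower bound in size and was -2.74 on the other probe set. Flrt3, a membrane ligand of Unc5 receptors, had means of 9.62, 8.63, 7.55 and 10.42 in KC1 to KC4 (class difference -1.82) and Mical2 8.65, 7.35, 9.06 and 9.70 (-1.34). Flrt3 and its partner receptor Unc5b were both highest in KC4, but they did not run in parallel over the other lines. Flrt3 was lowest in KC3, where Unc5b (11.64) was above KC1 (10.78) and KC2 (10.81). Dpysl2 set KC3 apart as low (10.37, against 12.24 to 12.91). Fyn, a kinase used by ephrin and semaphorin receptors, set KC3 apart as high (9.77) and KC2 as low (7.43), with 8.44 in KC1 and 8.53 in KC4. The second Fyn probe set put KC2 apart as low but not KC3 as high (9.12, against 8.59 in KC4). The second probe set of Dpysl2 did not set KC3 apart, and that of Mical2 was not called between the classes (-0.87).

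**Figure D5:**
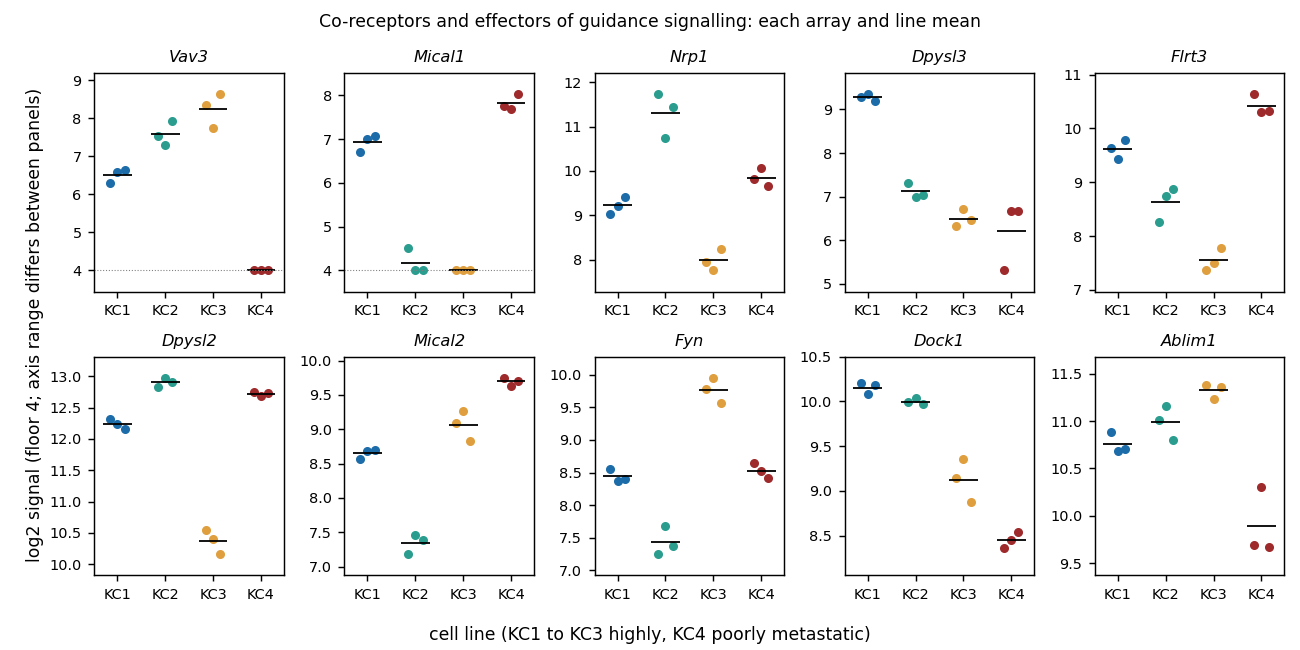
Log2 signal on each array for the 10 co-receptors and effectors named by size of difference. Points are arrays, bars are line means, the dotted line is the floor of 4, and axis ranges differ between panels. Vav3 lies at the floor in KC4 and Mical1 in KC3, Nrp1 is highest in KC2 and lowest in KC3, and Fyn is highest in KC3.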

How the data were processed

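Each of 4 lines was measured on 3 Affymetrix arrays of 1 colour. The table the authors deposited gives the intensity of 45101 probe sets on each array, on a linear scale. No source used here names the software. All arrays had the same mean after trimming 2% at each end (500.002 to 500.003), as after scaling to 1 target, so changes in total RNA are not visible. Scanner output was not used here.

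Control probe sets (64) were left out. In the platform annotation 34945 of the rest had 1 gene symbol, 932 more than 1 symbol, and 9160 no entry. The probe set with the highest mean log2 signal stood for each gene, and 42 members had more than 1. All 66 members matched a RefSeq gene identifier. Signals were set to at least 16 before log2. On each array 15.3% to 20.0% of probe sets lay at or under that floor. R 4.3.3 and limma 3.58.1 were used, with lmFit on all 12 arrays, a coefficient for each line and eBayes (prior degrees of freedom 0.811), with Benjamini-Hochberg adjustment over all genes. The fit was tested on simulated data. A gene set a line apart when called against each other line in 1 direction. Other probe sets were tested in a fit of all probe sets. Every member is named, and the 19 called in a pair have their value on every array. Of the pathway partners the 10 with the largest differences among those called between classes or setting a line apart are named, along with other genes chosen after their values were seen. The members and lists were chosen with earlier results of these data known. Plots were made with matplotlib 3.10.9.

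Precision rests on 3 arrays per line. Among members the median within-line SD was 0.39 for members with a mean under 6, 0.21 from 6 to 9 and 0.09 above 9. Alternatives covered the replicate block, leaving out arrays or lines, the floor, the probe set used, leaving out dim genes, the scaling, the prior and the minimum difference.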

Additional observations from a re-analysis of the deposited data

How the results depend on the processing

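The replicate numbers in the labels do not pair the arrays: same-numbered arrays of different lines had correlations of deviations from -0.125 to 0.104 over 18 pairs, and 4 of 12 arrays correlated best with their own number. With the replicate block 7 members were called between the classes (979 genes in all) and 18 in a pair of lines, and Sema6a was the call lost. Other alternatives that moved a count by over 1.5 times were as follows. Members called between the classes numbered 4 without line KC2 (4.99% of all genes), 3 with the line as a random block (1.42%), 24 with no minimum difference (32.1% of all genes) and 0 with a minimum of 2 (1.37%). Members called in a pair numbered 35 with no minimum (55.6%) and 4 with a minimum of 2 (5.6%). Partners called between the classes numbered 11 without line KC3 (6.6%), 1 with the random block (1.42%), 4 without the dimmer 50% of genes (5.69%), 29 with no minimum (32.1%) and 2 with a minimum of 2 (1.37%). Without 1 array, members called between the classes ranged from 7 to 8, those called in a pair from 16 to 20 and partners called from 6 to 8.

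Members that set KC1 apart numbered 0, and 1 when the probe sets of a gene were averaged (Sema4a). For KC2 the count was 1, and 2 with quantile normalization (Sema3a added) and 0 with a minimum of 2, while averaged probe sets gave Sema3a in place of Ntn4. For KC3 it was 0, and 1 with averaged probe sets (Plxna2). For KC4 it was 1, and 0 with a pseudocount of 16 or a minimum of 2 and 2 with quantile normalization or median centring (Sema4f added), while averaged probe sets gave Sema4f in place of Epha1. With no minimum difference the 4 counts were 2, 11, 6 and 6, against 4.13%, 13.2%, 15.4% and 9.93% of all genes. Without 1 array they ranged from 0 to 0 (KC1), 1 to 2 (KC2, 2 without KC1 replicate 2, with Sema3a), 0 to 1 (KC3, 1 without KC3 replicate 1, with Sema4a, or replicate 3, with Efna2) and 0 to 1 (KC4, 0 without KC4 replicate 3). Reversed values were those of other probe sets: -0.021 for Sema6d, KC2 minus KC3, and -0.34 and -0.68 for Sema6a, KC1 minus KC2. With the random block the adjusted p was 0.355 for Ephb6, 0.656 for Sema3a, 0.235 for Sema4f and 0.567 for Slit2, so these 4 calls were lost. The cause of each change was not tested. Members with a mean under 6 have the widest spread between arrays, so small differences in them could not be detected.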
